A study of Homo sapiens with 3 samples.

Results

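Complement is a set of plasma and membrane proteins that tags and lyses cells, and 9 of its genes are described here. They are the central component C3, the proteases C1R, C1S and CFB that drive the cascade, and the regulators that hold it back, CFI, SERPING1, CD46, CD55 and CD59. They were found by gene symbol in a table of 57736 gene rows, where CFB stood in 2 rows that were summed, the second of them at 0 counts in every library. All 9 were present, and 7 of them had enough counts to enter the fit that tested 14524 genes. The RNA came from TOV21G, an established human line of ovarian clear cell carcinoma whose ARID1A gene is mutated, kept in medium with fetal bovine serum. The design had 3 libraries. A single one was from wild-type cells (WT), and 2 were from cells transduced with a lentivirus carrying a short hairpin RNA against the histone deacetylase HDAC2 (HDAC2 knockdown, here shRNA 1 and shRNA 2, 1 library each). All 3 share the ARID1A mutation of the line. No label states that WT received a control virus, so depletion of HDAC2 and transduction cannot be told apart. The 9 genes were chosen by role and by their knockdown against WT values in these same libraries, which were known when the list was made. Their levels and changes are therefore a description, without a test.

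Complement is set off along the classical, lectin and alternative pathways, which meet at the cleavage of C3. In the classical pathway the serine proteases C1R and C1S act in sequence within the C1 complex, and in the alternative pathway CFB supplies the protease part of the enzyme that cleaves more C3. Host cells carry brakes on their membranes: CD55 speeds the decay of the C3-cleaving enzymes, CD46 serves as cofactor while the protease CFI degrades C3b, and CD59 blocks assembly of the membrane attack complex. SERPING1, the C1 inhibitor, shuts off C1R and C1S. The liver makes most plasma complement, and epithelial and tumour cells also make C3 and the membrane brakes.

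The pair of hairpins in the labels is shown because the genes below did not always move alike with them. Each line gives the 21-base sense strand of a stem, 5′ to 3′, with capitals over the bases that pair with the seed (bases 2 to 8) of the opposite strand.
First hairpin in the labels: cagtctcaccaatTTCAGAAa
Second hairpin in the labels: gcaaatactatgcTGTCAATt
Both stems were found whole in the longest coding transcript of HDAC2 in GENCODE 29 and in 0 of the 9 complement transcripts chosen in the same way. The longest run shared with a complement transcript was 11 bases, for the first stem in CD55. The seed site of the first stem, TTCAGAA, occurred in the transcripts of CD46, CD55 and CD59 and in those of 42% of the 12177 coding genes tested. The seed site of the second, TGTCAAT, occurred in 0 of the 9 and in 17.8% of the coding genes. C3 held neither site. Such matches describe the letters only, and the labels do not say which stem is shRNA 1.

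HDAC2, the target, was at 105 CPM (counts scaled to the effective library size) in WT, 33.4 CPM with shRNA 1 and 51.6 CPM with shRNA 2, which was 31.7% and 48.9% of WT. The libraries held 10138479 to 11398791 counts, and 3 counts, taken here as an approximate limit for an observed 0, equalled 0.262 to 0.301 CPM. Of the clear cell carcinoma markers, the transcription factor gene PAX8 was at 174 to 263 CPM, while NAPSA, which encodes napsin A, had 1 to 4 counts. The 6 hepatocyte markers summed to at most 1.05 CPM and the 8 leukocyte markers to at most 1.2 CPM, with TTR, AIF1 and CD3E at 0 counts in all libraries. The 6 fibroblast markers summed to 15.7 CPM in WT, 24.3 CPM with shRNA 1 and 38.7 CPM with shRNA 2, mostly from COL1A1 and COL1A2, while COL3A1 and LUM had 0 counts. The part of these markers in the results below was not tested. Whether the libraries came from separate cultures is not stated, so a p-value here reflects only the difference between both hairpins, which may be technical, and assumes that WT varies as they do. The hairpin comparisons share that WT library. In bulk RNA, fewer cells expressing a gene and less RNA per cell cannot be told apart.

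**Figure D1:**
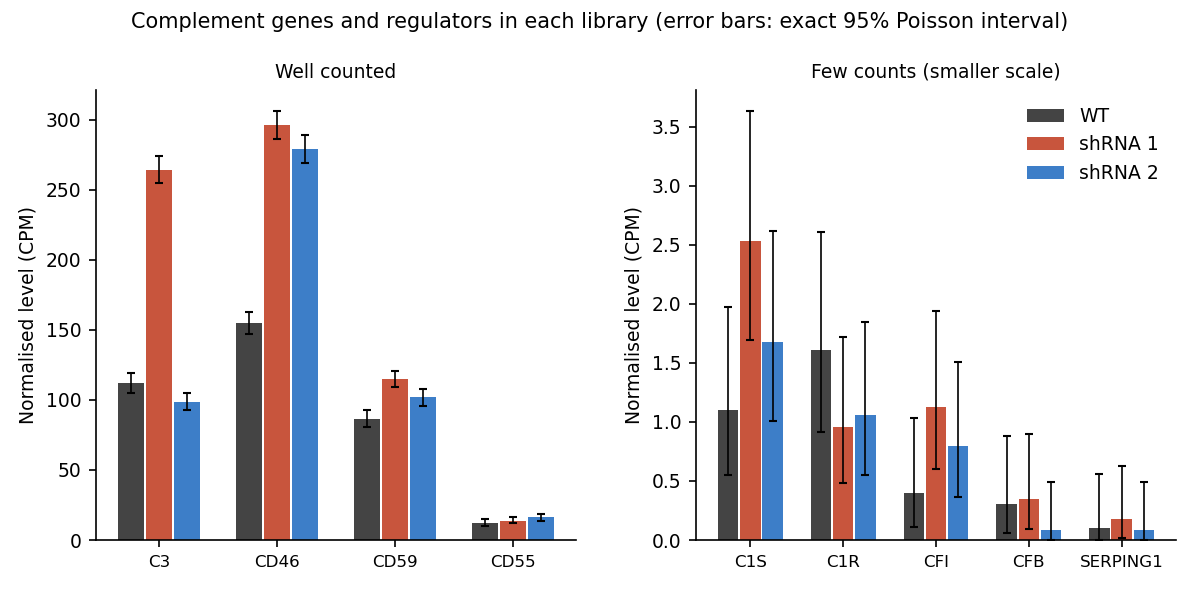
Normalised level (CPM, linear axes from 0) of the 9 genes in the WT, shRNA 1 and shRNA 2 libraries, with well counted genes on the left and genes with few counts on the right; bars are single libraries and error bars are exact 95% Poisson intervals, which cover counting error only. C3 stands at 264 CPM with shRNA 1 against 112 CPM in WT and 98.7 CPM with shRNA 2, while CD46 is at 296 and 279 CPM with the hairpins against 155 CPM in WT.

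C3, from which every pathway proceeds, was far higher with one hairpin and not with the other. C3 (ENSG00000125730; GRCh38 chromosome 19, 6677704 to 6730562, minus strand) had 1115 counts in WT, 3028 with shRNA 1 and 1116 with shRNA 2. In normalised terms this was 112 CPM in WT, 264 CPM with shRNA 1 and 98.7 CPM with shRNA 2. WT thus lay between the hairpins, close to shRNA 2, and the knockdown group overlapped it. The level with shRNA 1 was 2.36 times that of WT (exact 95% interval from counting error 2.2 to 2.53), and with shRNA 2 it was 0.882 of WT (0.811 to 0.959). On the log2 CPM scale the changes were 1.24 with shRNA 1 and −0.18 with shRNA 2, and the fitted change over both was 0.70. The mean of the knockdown libraries, 181 ± 117 CPM (SD, n = 2), describes neither of them. No 75-base sequence of C3 transcripts was shared with another gene in GENCODE 29, so C3 reads are not split with a copy there.

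Compared directly, C3 was 2.68 times higher with shRNA 1 than with shRNA 2 (exact 95% interval from counting error 2.5 to 2.87), a log2 difference of 1.42. Each hairpin has 1 library, so this comparison has no replicate check. Among the 11206 genes whose mean count reached 50, the difference of C3 was the 9th highest in favour of shRNA 1. Differences of at least 2-fold in either direction were found in 0.607% of those genes. C3 was the only one of the 4 complement genes with such counts to reach that size. As the genes were chosen with their values in these libraries known, this rank and share are a description, not a test. The others differed by log2 values of 0.08 for CD46, 0.18 for CD59 and −0.21 for CD55. HDAC2 itself was lower with shRNA 1 than with shRNA 2, at 0.648 of its level (0.568 to 0.739), and the part of this gap in the C3 difference was not tested. The fibroblast markers summed to more with both hairpins than in WT, with the highest sum in shRNA 2. Among them COL1A2, a collagen chain, rose from 87 counts in WT to 220 with shRNA 1 and 335 with shRNA 2. Its log2 change was 1.48 ± 0.27 (SE; adjusted p = 0.00235 by edgeR's quasi-likelihood test). COL1A1 did not rise with it, at 67 counts in WT, 54 with shRNA 1 and 89 with shRNA 2. Its log2 change was −0.10 ± 0.34 (SE; adjusted p = 0.899 by the same test). The part of either gene in the C3 values was not tested.

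**Figure D2:**
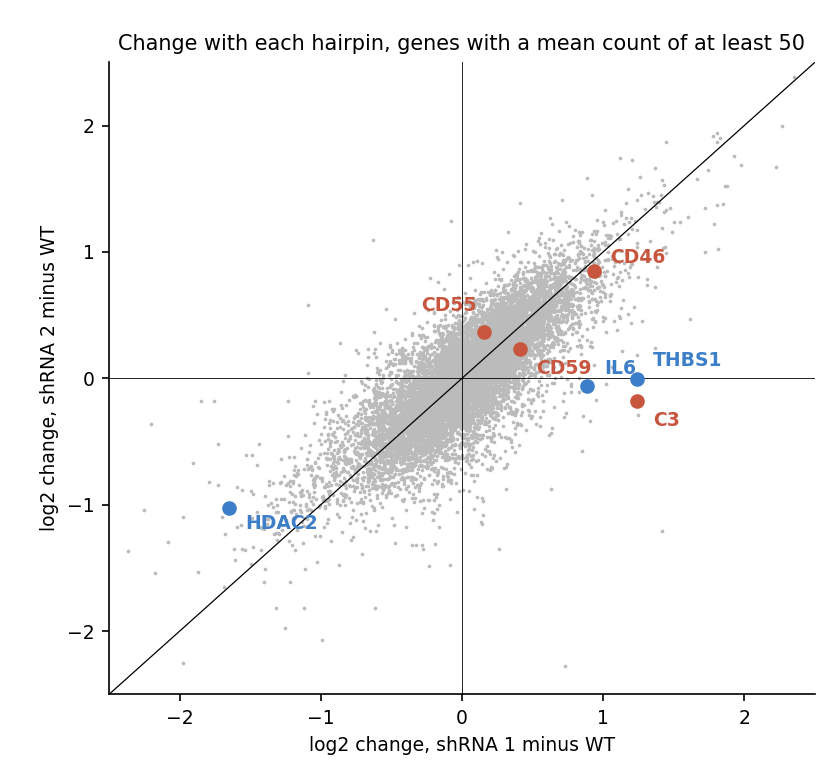
Change of each gene whose mean count reached 50 with shRNA 1 (x axis) and shRNA 2 (y axis), both as log2 CPM minus the same WT library; the diagonal marks equal change, and genes beyond 2.5 on either axis are not drawn. C3 lies at 1.24 and −0.18, beside THBS1 at 1.24 and 0.00 and IL6 at 0.89 and −0.06, whereas CD46 lies near the diagonal at 0.93 and 0.85.

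The genes whose pattern was most like that of C3 were sought among 10620 named genes whose mean count reached 50, by the distance between their pairs of log2 changes over the 3 libraries. The nearest 5 were GMPPB, THBS1, CLSTN2, ABCA12 and IL6, at distances of 0.11, 0.18, 0.36, 0.37 and 0.37. GMPPB, a subunit of the enzyme that makes GDP-mannose, had 37 counts in WT, 104 with shRNA 1 and 34 with shRNA 2. THBS1, the matrix glycoprotein thrombospondin 1, was at 169 CPM in WT, 399 CPM with shRNA 1 and 169 CPM with shRNA 2. CLSTN2, a calsyntenin of the cadherin superfamily, was at 29.9, 70.8 and 34 CPM in the same order. ABCA12, a lipid transporter, was at 6.32, 12 and 4.95 CPM. IL6, the cytokine that drives the acute-phase response, was at 36.5 CPM in WT, 67.7 CPM with shRNA 1 and 34.9 CPM with shRNA 2. All 5 were chosen for this shape, which rests on single libraries.

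The other members of the pathways upstream of C3 and around it were near the limit of detection. CFB (GRCh38 chromosome 6, 31945650 to 31952084) had 3 counts in WT, 4 with shRNA 1 and 1 with shRNA 2. It shares 39.7% of its 75-base sequences with a read-through of C2 and CFB, so its few counts are uncertain. No fold is given for CFB. Counts of CFB were thus low in every library, including the one where C3 was highest.

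C1R and C1S, which lie close together on chromosome 12, did not differ from WT in the same direction. C1R (7080199 to 7092607, minus strand, GRCh38) had 16 counts in WT, 11 with shRNA 1 and 12 with shRNA 2, or 1.61, 0.96 and 1.06 CPM. Both hairpins were below WT, at 0.598 (exact 95% interval from counting error 0.251 to 1.37) and 0.661 (0.285 to 1.49) of its level. C1R shares 9.2% of its 75-base sequences with the adjoining gene C1RL, which it overlaps. C1S (6988259 to 7071032, plus strand) had 11 counts in WT, 29 with shRNA 1 and 19 with shRNA 2, or 1.1, 2.53 and 1.68 CPM. Both hairpins were above WT, at 2.29 (1.11 to 5.09) and 1.52 (0.689 to 3.54) times its level. C1S shares 2.15% of its 75-base sequences with EMG1, which it overlaps on the same strand. Of the 4 intervals, only that of C1S with shRNA 1 lay clear of 1.

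The fluid-phase regulators were as scarce. SERPING1 (GRCh38 chromosome 11, 57597387 to 57614853) had 1 count in WT, 2 with shRNA 1 and 1 with shRNA 2, under the limit of 3 counts in each library, and no change can be read from it. CFI (GRCh38 chromosome 4, 109740694 to 109802179) had 4 counts in WT, 13 with shRNA 1 and 9 with shRNA 2, or 0.401, 1.13 and 0.796 CPM. Both hairpins were above WT, but the counting intervals of the folds, 0.873 to 11.9 and 0.554 to 8.81, took in 1. CFI entered the fit through the shRNA 1 library alone, so that it was tested at all required it to be higher there. It also shares 29.4% of its 75-base sequences with an overlapping gene model, AC126283.2. Both soluble brakes thus had few counts where the membrane brakes were well counted.

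CD46, the cofactor that lets CFI degrade C3b, had the largest and most even change of the membrane regulators. CD46 (ENSG00000117335; GRCh38 chromosome 1, 207752057 to 207795513, plus strand) had 1542 counts in WT, 3389 with shRNA 1 and 3153 with shRNA 2. The levels were 155 CPM in WT, 296 CPM with shRNA 1 and 279 CPM with shRNA 2. Over both hairpins the mean was 287 ± 11.9 CPM (SD, n = 2). Both hairpins were above WT with no overlap, at 191% and 180% of its level. The fitted log2 change was 0.89, from 0.93 and 0.85 with the single hairpins. CD46 was the 1 of the 7 genes in the fit that passed edgeR's quasi-likelihood test at an adjusted p below 0.05, where 7.72% of all 14524 genes passed and 3.96% passed upwards. As the genes were chosen with this contrast in view, nothing is read from that count. After each library was corrected for a trend with transcript GC content, the fitted log2 change of CD46 was 0.58, and 0 of the 7 passed. With no filter on low counts 0 passed either, and neither did any other gene. CD46 also passed under the other scalings, with the filter at a mean count of 50, by DESeq2's Wald test and by edgeR's likelihood ratio test. These calls share the same choice of genes and the same 3 libraries, and are a description as well. The GC correction left 411 genes past the test in place of 1121, with 34.8% of them higher in place of 51.3%. The longest annotated form of CD46, which the correction used, is AT-rich, with 37.7% GC against 56.5% for C3. That form has 7826 bases, while the longest coding form of CD46 has 3371. For C3 the longest form is also the longest coding one. The C3 change was 0.89 under the same correction.

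CD59 and CD55, which are held in the membrane by a glycosylphosphatidylinositol (GPI) anchor, differed from WT by less. CD59 (ENSG00000085063; GRCh38 chromosome 11, 33703010 to 33736491, minus strand) had 863 counts in WT, 1319 with shRNA 1 and 1149 with shRNA 2. Its levels were 86.6, 115 and 102 CPM, so that both hairpins were above WT, at 133% and 117% of it. CD55 (ENSG00000196352; GRCh38 chromosome 1, 207321376 to 207386804, plus strand) had 124 counts in WT, 159 with shRNA 1 and 182 with shRNA 2. Its levels were 12.4, 13.9 and 16.1 CPM, again with both hairpins above WT, at 112% and 129%. The counting interval of the fold of CD55 took in 1 with shRNA 1 (0.876 to 1.42) and not with shRNA 2 (1.02 to 1.64). The fitted log2 changes were 0.32 for CD59 and 0.27 for CD55, and with the GC trend removed 0.26 and 0.07. CD59 shares 5.28% of its 75-base sequences with an overlapping gene model, AL049629.2, and CD55 shares none. The difference in response between CD46 and the GPI-anchored brakes was not tested.

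CD55 and CD46 bound a stretch of chromosome 1 that holds further complement regulators, and these were silent or nearly so. Between the start of CD55 and the end of CD46 (GRCh38, 207321376 to 207795513), 7 other annotated genes had a row in the table, and 6 of them had 0 counts in all libraries. The complement receptor genes CR2 and CR1L were among these 6, with the pseudogene CD46P1. CR1, the immune adherence receptor, had 1 count in WT, 0 with shRNA 1 and 1 with shRNA 2. The 2 expressed neighbours, at 155 and 12.4 CPM in WT, are shown by the sequences at their RefSeq start sites, from 250 bases before to 50 after, on the plus strand of GRCh38.p14. Capitals mark the GC box (GGGCGG) and the CCAAT box (CCAAT), each searched on both strands, without overlaps between them.
CD46, chr1:207751788-207752087: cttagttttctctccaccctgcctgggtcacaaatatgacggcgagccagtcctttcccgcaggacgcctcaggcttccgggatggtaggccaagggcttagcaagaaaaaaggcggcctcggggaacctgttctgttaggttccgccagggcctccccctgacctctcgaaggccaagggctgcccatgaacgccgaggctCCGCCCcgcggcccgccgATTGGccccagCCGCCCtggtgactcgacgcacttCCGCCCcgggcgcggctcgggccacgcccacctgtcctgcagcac
CD55, chr1:207321428-207321727: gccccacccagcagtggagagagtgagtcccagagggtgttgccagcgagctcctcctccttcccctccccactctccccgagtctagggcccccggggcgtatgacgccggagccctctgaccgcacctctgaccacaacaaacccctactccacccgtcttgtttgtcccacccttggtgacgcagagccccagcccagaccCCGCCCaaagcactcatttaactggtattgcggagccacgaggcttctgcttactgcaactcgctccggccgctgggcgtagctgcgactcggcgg
The CD46 window held 3 GC boxes and 1 CCAAT box, and the CD55 window 1 GC box and 0 CCAAT boxes. Neither held TATAAA. Of 35116 RefSeq promoter windows of the same length, 45% held a GC box, 34.6% a CCAAT box and 11.5% TATAAA, so these letters are common. RefSeq windows were at hand for 6 of the 9 genes, not for C3, C1S and SERPING1.

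To compare levels between genes, counts were also divided by the length of the longest coding transcript (RPKM). In WT the order was CD46 at 45.9 RPKM, C3 at 21.3, CD59 at 11.3 and CD55 at 4.3 RPKM, followed by C1R at 0.603, C1S at 0.359, CFI at 0.186, CFB at 0.105 and SERPING1 at 0.045 RPKM. With shRNA 1, C3 reached 50.2 RPKM and CD46 87.7 RPKM, and with shRNA 2 they stood at 18.8 and 82.7 RPKM. CD46 was thus the highest in all 3 libraries at these lengths. The place of CD59 depends on its length: with 1143 bases, the longest coding form among the transcripts listed in the table, in place of 7631 bases, its WT level was 75.7 RPKM and above that of CD46. The order among the 5 scarce genes, CFB, C1R, C1S, CFI and SERPING1, rests on 1 to 29 counts, and neighbours in it do not differ beyond their counting intervals in WT.

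Outside the 9 genes, most of the complement system was not detectable at this depth. Of 58 other complement genes on a list drawn up from textbook knowledge, 56 were in the table, 26 had 0 counts in all libraries and 9 had enough counts to be tested. Of these 9, edgeR's quasi-likelihood test called 0 after adjustment, where 7.72% of all genes passed. By the same test 2 had an unadjusted p below 0.05, against 3420 of all 14524 genes. Both counts are near the share over all genes, and nothing is read from them. DESeq2's Wald test and edgeR's likelihood ratio test called 0, but the former could not call those with few counts. The median log2 change of the 9 was 0.11, against 0.01 over all genes tested. The tested genes of higher level were C1QBP, a mitochondrial protein that binds C1q, C5, the first component of the lytic pathway, CLU, an inhibitor of the membrane attack complex, and CD109, a membrane protein of the same thioester family as C3.

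C5, the component cleaved after C3, had 1133 counts in WT, 1591 with shRNA 1 and 1632 with shRNA 2. Its log2 difference, 0.32 ± 0.17 (SE), missed the threshold (adjusted p = 0.281 by edgeR's quasi-likelihood test). Its hairpins stood together, at 0.29 and 0.34, unlike those of C3. CLU changed by −0.04 ± 0.18, CD109 by 0.11 ± 0.17 and C1QBP by 0.16 ± 0.17 (log2 ± SE). C1RL, a C1R-like protease, differed by −0.24 ± 0.20, and CFD, the protease that activates CFB, by −0.73 ± 0.34 with 67, 51 and 41 counts. CPAMD8, a further thioester protein, had 3 counts in WT, 22 with shRNA 1 and 11 with shRNA 2 and did not pass (adjusted p = 0.155 by the same test). It entered the fit through the knockdown libraries alone, so a higher level there was a condition of its being tested. Of the recognition genes, C1QA, C1QB, C1QC and MBL2 had 0 counts. C2, the classical partner of CFB, had 3, 5 and 6 counts. Of the terminal components after C5, none reached more than 2 counts in any library. The receptor C5AR1 had 21 counts in WT, 21 with shRNA 1 and 13 with shRNA 2, and C3AR1 at most 2.

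**Figure D3:**
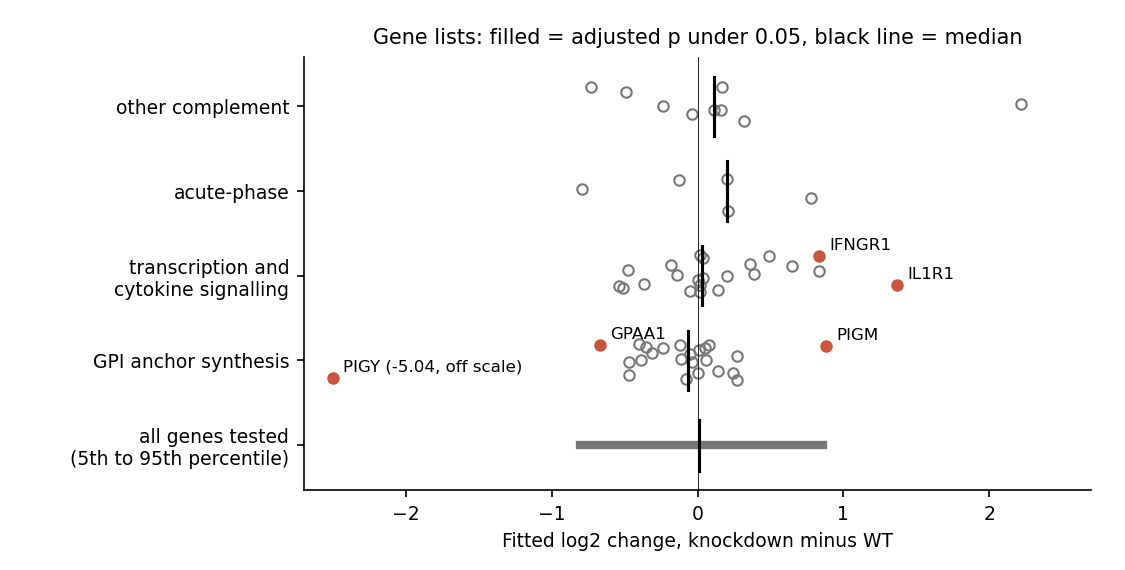
Fitted log2 change (knockdown minus WT) of the tested genes of 4 lists, with filled points for genes at an adjusted p below 0.05, black lines at the list medians, and the 5th to 95th percentile of all genes tested as a grey bar. Of the 9 other complement genes tested 0 pass, where 7.72% of all genes pass. The points that pass are IFNGR1, IL1R1, PIGM, GPAA1 and PIGY, the last drawn at the edge since its value is −5.04.

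Factors, cytokines and receptors that act on C3 and CFB in other cells were taken as a further list. Of 22 tested 2 rose, IFNGR1 and IL1R1, 0 fell and 20 missed the threshold, where 7.72% of all genes passed. By edgeR's quasi-likelihood test 7 of the 22 had an unadjusted p below 0.05, against 3420 of all 14524 genes. For a list of 22 genes neither count is far from the share over all genes, and nothing is read from them. The median log2 change was 0.03 against 0.01 over all genes. IFNGR1, the ligand-binding chain of the interferon gamma receptor, rose from 461 counts in WT to 1004 with shRNA 1 and 867 with shRNA 2, by 0.83 ± 0.18 on the log2 scale (SE; adjusted p = 0.00796 by edgeR's quasi-likelihood test). IL1R1, the interleukin 1 receptor, rose from 23 counts to 74 and 62, by 1.37 ± 0.40 (SE; adjusted p = 0.0381 by the same test). Neither passed with the GC trend removed or with no filter on low counts. By DESeq2's Wald test IFNGR1 passed. That test gave no adjusted p to CD55, and IL1R1 had fewer counts still, so IL1R1 could not be called by it. IL6ST, the shared signal chain of the IL6 family of receptors, differed by 0.39 ± 0.17, OSMR by 0.14 ± 0.19 and IFNGR2 by −0.14 ± 0.17 (log2 ± SE), and none of these passed. The NF-κB inhibitor gene NFKBIA differed by −0.54 ± 0.18 and did not pass (adjusted p = 0.0665 by the same test). IL6, whose shape followed C3, did not pass over both hairpins either, at 0.49 ± 0.26 (adjusted p = 0.271 by the same test).

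Acute-phase genes, which the liver makes together with complement, were mostly too scarce to be tested. Of 17 listed, 5 were tested and 0 passed by edgeR's quasi-likelihood test, where 7.72% of all genes passed. By the same test 0 had an unadjusted p below 0.05, against 3420 of all 14524 genes. With 5 genes, nothing is read from either count. DESeq2's Wald test called 0, but could not call the scarcer ones. The median log2 change was 0.20, against 0.01 over all genes. FGB, the fibrinogen beta chain, was the most abundant and changed by −0.13 ± 0.18 (SE), from 1735 counts in WT to 1999 and 1628. FGA differed by 0.21 ± 0.23, CP, ceruloplasmin, by 0.20 ± 0.25, and SERPINA3, which shares 28.8% of its sequences with another gene model, by 0.78 ± 0.49 (log2 ± SE).

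The last list held genes that build the GPI anchor of CD55 and CD59. Of 24 tested, 1 rose, 2 fell (1 of them uncertain) and 21 missed the threshold, where 7.72% of all genes passed. By edgeR's quasi-likelihood test 6 of the 24 had an unadjusted p below 0.05, against 3420 of all 14524 genes. These counts too are near the share over all genes, and nothing is read from them. The median log2 change was −0.07 against 0.01 over all genes. PIGM, a mannosyltransferase of the pathway, rose from 155 counts in WT to 327 and 324, by 0.88 ± 0.21 on the log2 scale (SE; adjusted p = 0.0156 by edgeR's quasi-likelihood test). GPAA1, a subunit of the transamidase that attaches the anchor, fell from 367 counts to 278 and 248, by −0.67 ± 0.19 (SE; adjusted p = 0.0375 by the same test). PIGY, with 18 counts in WT, 0 with shRNA 1 and 1 with shRNA 2 (adjusted p = 0.0122 by the same test), shares 100% of its 75-base sequences with PYURF. It also entered the fit through the WT library alone, so that it was tested at all required it to be higher there, and its call is uncertain. The more abundant PIGT, PIGS, PIGU and PIGK did not pass, at log2 changes of −0.31, −0.35, 0.05 and 0.27. PIGM and GPAA1 did not pass with the GC trend removed, and PIGM, GPAA1 and PIGY did not pass with no filter on low counts. DESeq2's Wald test called none of PIGM, GPAA1 and PIGY, but PIGY had too few counts to be called by it. Whether PIGM and GPAA1 had enough counts for that test was not established.

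**Figure D4:**
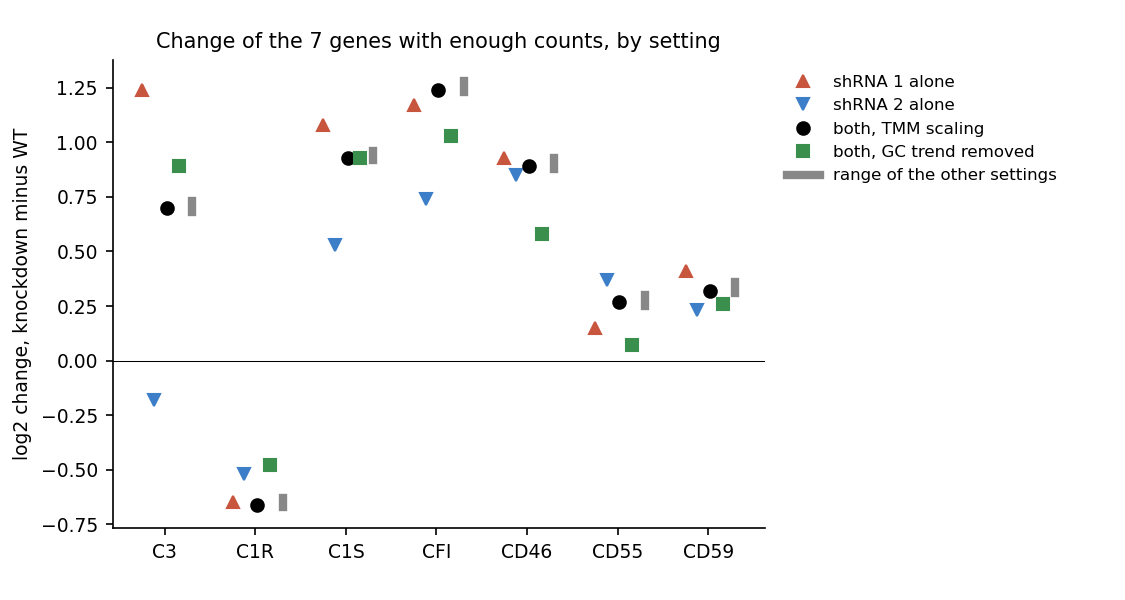
Log2 change (knockdown minus WT) of the 7 genes in the fit with each hairpin alone, over both hairpins with the scaling of the main analysis, with the GC trend removed, and as the range over the other settings. C3 runs from −0.18 with shRNA 2 alone to 1.24 with shRNA 1 alone, and CD46 from 0.58 with the GC trend removed to 0.93.

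Over both hairpins, the log2 change was also computed under other scalings, filters and tests. The values ran from 0.68 to 0.89 for C3, 0.58 to 0.93 for CD46, 0.26 to 0.36 for CD59 and 0.07 to 0.30 for CD55. For C1S they ran from 0.92 to 0.96 and for C1R from −0.67 to −0.48. Those of CFI, 1.03 to 1.28, say nothing of its direction, which its way into the fit favoured. The C3 value rests on the shRNA 1 library: without it the change was −0.18, and without shRNA 2 it was 1.24.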

How the data were processed

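RNA of TOV21G cells was sequenced as 75-base reads from ScriptSeq Complete Gold libraries on an Illumina instrument, per the labels' protocols. What the authors deposited are estimated counts per Ensembl gene, already whole, so rounding changed 0 values. RSEM 1.2.3, edgeR and hg19 are named, without their roles, per the submitters' processing notes. The annotation and the use of strand are not given in the sources used here. RSEM divides reads that fit several genes by a model.

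Counts were scaled by TMM and filtered with filterByExpr (10 counts, here 0.891 CPM, in at least 1 library). Knockdown (n = 2) was tested against WT (n = 1) over all genes with edgeR's quasi-likelihood test (edgeR 4.0.16, R 4.3.3) and Benjamini-Hochberg adjustment. The fit had 1 residual degree of freedom and a prior of 18.9. Each SE is the size of the estimate over the square root of F. Changes with single hairpins are log2 CPM differences at a prior count of 2. Counting intervals are exact Poisson or binomial intervals, and cover counting error only. Positions, lengths and GC content come from GENCODE 29 (GRCh38), matched by gene ID, since the table has no coordinates, and start-site sequences from RefSeq (GRCh38.p14).

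Alternatives were other scalings (library size, upper quartile, size factors of DESeq2 1.42.0), no filter, a filter at a mean count of 50, the likelihood ratio test of edgeR and the Wald test of DESeq2, a prior count of 0.5, single hairpins, and removal of a spline trend in GC content (known for 97.2% of genes tested). DESeq2's Wald test gave no adjusted p to genes below a mean count that it sets itself, CD55, C1R, C1S and CFI among them. Such genes could not pass by it. Scripts were tested on simulated data. The 9 genes and the lists were chosen with earlier results of these data known. Named were the 9 genes, HDAC2, up to 6 genes past the test in each direction and up to 4 of the highest level from each list, and the 5 genes most like C3. Genes named beyond this rule (CFD, C1RL, C2, C5AR1, C3AR1, CPAMD8, C1q genes, MBL2, CR1, CR2, CR1L, CD46P1, NFKBIA, IL6, SERPINA3 and marker genes) were picked for their role or position after their values were seen. Listed genes without a row under their symbol were not analysed here, and some listed genes are not reported here.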

Additional observations from a re-analysis of the deposited data

How the results depend on the processing

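Over all genes, 1121 passed (575 up, 546 down), 0 with no filter on low counts (2486 at an unadjusted p below 0.05), 306 by DESeq2's Wald test and 411 with the GC trend removed. The last split was 143 up and 268 down, or 34.8% up against 51.3%. Of the 9 complement genes, CD46 alone passed in the main analysis, under the other scalings, with the filter at a mean count of 50 and by both other tests. With no filter or with the GC trend removed 0 of the 9 passed. In the acute-phase, transcription and GPI anchor lists together 5 genes passed, 0 with no filter, 1 (IFNGR1) by DESeq2's Wald test and 2 (PIGY and REL) with the GC trend removed. The other complement genes gave 0 calls under each of the alternatives run, though by DESeq2's Wald test those with few counts could not be called. The prior degrees of freedom were 9.79 after that removal, against 18.9 before; the cause of the lost calls was not tested. Leaving out a hairpin leaves 1 library a group and no test: the log2 change then ranged from −0.18 to 1.24 for C3, 0.53 to 1.08 for C1S and 0.74 to 1.17 for CFI. WT could not be left out. No paired analysis was possible because the labels number hairpins, and WT has 1 library without a number. The single WT library and the 1 to 29 counts of CFB, C1R, C1S, CFI and SERPING1 limit what these data can show.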
